A study of Mus musculus with 57 samples.

Results

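The levels of 36 cell cycle and proliferation genes were followed across all 19 sample groups of a mouse kidney injury study. The genes were listed by name and divide by known role into 5 regulators of G1 and of entry into S phase, 12 genes of S phase and 19 genes of G2 and mitosis. Each gene was read from the probe set that the platform table annotates with its symbol alone, and from the one with the highest mean where there were several. This gave 35 of the 36 genes, out of 19938 genes measured in the same way. Ccnb1, which encodes cyclin B1, had no probe set with its symbol alone, so 18 of the 19 mitosis genes were measured.

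A cell that divides passes from G1, where D and E cyclins prepare the start of replication, through S phase, where DNA is copied, into G2 and mitosis, where chromosomes are condensed and separated. S phase genes are largely under E2F factors, whereas most G2 and mitosis genes are held down in resting cells by a repressor complex that binds the CHR promoter element and are switched on later by B-MYB and FOXM1. In the adult kidney few cells divide, and after ischemia surviving tubule cells enter the cycle to replace lost ones.

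The study used translating ribosome affinity purification (TRAP), in which a ribosomal protein fused to GFP, eGFP-L10a, is meant to be made only in cells that have expressed a Cre recombinase, so that an antibody to GFP pulls down the messages on the ribosomes of those cells. All mice were male and labelled as of mixed C57BL/6 and 129 background, although the untagged controls are also named C57BL/6 wild type. The eGFP-L10a allele lies at Rosa26 behind the CAGGS promoter. RNA was measured on 57 Affymetrix Mouse Gene 1.0 ST arrays, and the labels call the arrays of a group biological replicates.

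The nephron line carried Six2-Tet-GFP::CRE, which marks the descendants of nephron progenitors. The interstitial line carried Foxd1-GFP::CRE, whose gene is also active in podocytes. The endothelial line carried Cdh5-CRE, and the myeloid line carried Lyz2-CRE, which marks myeloid cells such as macrophages, monocytes and dendritic cells. Each line had 3 arrays without surgery, 3 at 24 h after sham surgery and 3 at 24 h after bilateral ischemia-reperfusion injury (IRI), in which the vessels of both kidneys were clamped (28 min). The nephron line had 3 more arrays at 4 h after IRI. No sham of 4 h was used here. Mice with the eGFP-L10a allele and no Cre, called L10a background, and untagged wild type mice, called wild-type background, each gave 2 sham and 4 IRI arrays of the same purification. The labels describe the first as homozygous in one field and as heterozygous in another. Total RNA of whole kidneys without Cre gave 3 sham and 3 IRI arrays. Ages differed between some groups. In the nephron line mice without surgery were 6 weeks old and the others 8 weeks, in the myeloid line mice without surgery and sham mice were 7 weeks and IRI mice 9.5 weeks, and in the interstitial and endothelial lines all were 6 weeks old. Background and total RNA mice were 8 weeks old.

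Without surgery Pdgfrb averaged 12.04 in the interstitial line against 8.12 to 9.70 in the other lines, and Pecam1 averaged 11.98 in the endothelial line against 6.94 to 9.68. The proximal tubule gene Slc34a1 averaged 13.24 in the nephron line but also 12.48 to 12.94 in the others, so tubule messages were present in every pull-down. The endothelial line also held myeloid messages. The mean log2 intensity of 8 macrophage markers, among them Adgre1, was 11.17 to 11.37 in its arrays without surgery, against 12.14 to 12.20 in the myeloid line, 8.71 to 9.67 in the interstitial line and 6.67 to 6.83 in the nephron line. Interstitial messages were also held by the wild-type background. Its Pdgfrb averaged 11.84 after sham and 11.58 after IRI, against 11.89 and 12.11 in the interstitial line. The values of TRAP arrays and total RNA arrays were not on a common scale, with median intensities of 105.8 to 128.4 and 43.9 to 53.3, so no level was compared between them. All levels below are log2 intensities, all differences are log2 fold changes with the standard error of a limma model, and rose and fell are used for an adjusted p under 0.05 over all 19244 or 19302 genes tested. The share of all genes at an unadjusted p under 0.05 was not computed, so counts at that threshold have no such comparison. In bulk material of this kind, fewer cells of a type and less RNA per cell cannot be told apart.

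The promoters of 3 mitosis genes and 1 S phase gene are shown, since these lists differed in their motifs. Windows from 250 bases before to 50 bases after the start were taken from RefSeq on build GRCm38.p6 and existed for 27 of the 36 genes. The stretches below run 5′ to 3′ in the direction of the gene. In the first 3, capitals mark matches to the CHR letters, TTTGAA or TTCGAA, and to the CCAAT box, each on either strand. In the last, capitals mark overlapping matches to the E2F letters TTCCCGC, alternatively TTGGCGC or else TTCGCGC, on either strand.
Ccnb2, cyclin B2 of the mitotic kinase, chr9:70421555-70421754, minus strand: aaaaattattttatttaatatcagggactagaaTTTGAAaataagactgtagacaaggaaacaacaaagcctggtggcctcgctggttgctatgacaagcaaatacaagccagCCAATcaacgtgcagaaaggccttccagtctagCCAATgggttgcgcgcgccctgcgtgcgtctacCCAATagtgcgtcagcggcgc
Cdk1, the mitotic kinase itself, chr10:69352913-69353112, minus strand: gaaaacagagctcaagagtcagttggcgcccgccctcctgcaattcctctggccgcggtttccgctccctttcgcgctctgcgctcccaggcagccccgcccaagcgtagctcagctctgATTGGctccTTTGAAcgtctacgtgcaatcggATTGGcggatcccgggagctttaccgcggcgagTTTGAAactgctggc
Top2a, topoisomerase II alpha, which untangles DNA before chromosomes part, chr11:99024190-99024389, minus strand: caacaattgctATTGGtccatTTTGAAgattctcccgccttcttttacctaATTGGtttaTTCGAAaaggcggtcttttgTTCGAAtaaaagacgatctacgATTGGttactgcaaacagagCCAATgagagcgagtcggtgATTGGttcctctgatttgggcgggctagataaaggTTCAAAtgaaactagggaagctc
Mcm6, a subunit of the replicative helicase, chr1:128359706-128359905, minus strand: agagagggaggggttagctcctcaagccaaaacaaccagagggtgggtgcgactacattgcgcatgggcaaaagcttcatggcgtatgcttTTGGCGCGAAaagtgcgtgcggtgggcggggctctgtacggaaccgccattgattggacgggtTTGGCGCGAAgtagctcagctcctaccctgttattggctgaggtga

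A CHR match lay in the window of 11 of 14 mitosis genes (78.6%) and of 2 of 11 S phase genes (18.2%), against 3175 of 17492 protein-coding genes (18.2%). The E2F letters lay in 7 of 11 S phase windows (63.6%) and in 3 of 14 mitosis windows (21.4%), against 10.5% of all genes. The CCAAT box was in 12 of 14 mitosis windows (85.7%) and 8 of 11 S phase windows (72.7%), against 39% of all genes. Neither of the 2 G1 genes with a window, Ccne1 and E2f1, held any of these. The Cdk1 stretch also holds 2 E2F matches and the Mcm6 stretch 2 CCAAT matches, left in lower case here. Each stretch is the 200 bases before the start, so matches elsewhere in the window are not shown. Among these is a CHR match of Ccnb2 that begins at base 5 after the start. Such matches are letters in a sequence and show no binding.

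In kidneys without surgery the 35 genes were not equally high in the 4 lines. The endothelial and myeloid lines lay above the nephron and interstitial lines for nearly every member. Against the mean of the other 3 lines, 33 of 35 members were higher in the endothelial line, where 20.9% of all genes were, and 31 were higher in the myeloid line, where 16.9% of all genes were. In the nephron line 27 members were lower (22.1% of all genes) and in the interstitial line 32 were lower (19.6% of all genes). These counts stayed between 22 and 33 when any 1 array of the lines was left out, and they share arrays with each other.

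The mitosis list accounted for 18 of 18 measured genes in both the endothelial and the myeloid line. Top2a read 9.02, 8.80 and 8.91 in the endothelial line and 8.73, 8.66 and 9.04 in the myeloid line without surgery. Its values in the nephron line were 6.40, 6.85 and 6.48, and in the interstitial line 6.71, 6.73 and 6.73. The first 2 lines therefore did not overlap the last 2. Against the mean of the other lines, Top2a was higher by 1.54 ± 0.15 in the endothelial line (adjusted p = 2.3e-10) and lower in the nephron line, at -1.57 ± 0.15 (adjusted p = 8.36e-11). The S phase list was higher by all 12 genes in the endothelial line and by 10 in the myeloid line. Mcm3, a subunit of the MCM helicase, read 9.16, 9.08 and 8.97 in the endothelial line and 6.52, 6.58 and 6.73 in the nephron line. All 8 macrophage markers were also higher in the endothelial and myeloid lines than in the mean of the other lines, and their part in these levels was not tested.

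Among the G1 genes Ccnd2, cyclin D2, differed most between lines. It read 12.20, 12.18 and 11.89 in the endothelial line, 11.80, 12.18 and 11.98 in the myeloid line, 10.89, 10.81 and 10.61 in the interstitial line and 8.08, 7.92 and 8.14 in the nephron line without surgery. The endothelial and myeloid arrays overlapped, and both other lines stood apart below them. Against the mean of the other 3, the nephron line was lower in Ccnd2, at -3.57 ± 0.13 (adjusted p = 5.46e-22). Ccnd1, cyclin D1, read 11.55, 11.58 and 11.69 in the nephron line and 12.19, 12.16 and 12.13 in the myeloid line. Its lowest mean of all TRAP groups, 11.15, was that of the interstitial line without surgery.

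**Figure D1:**
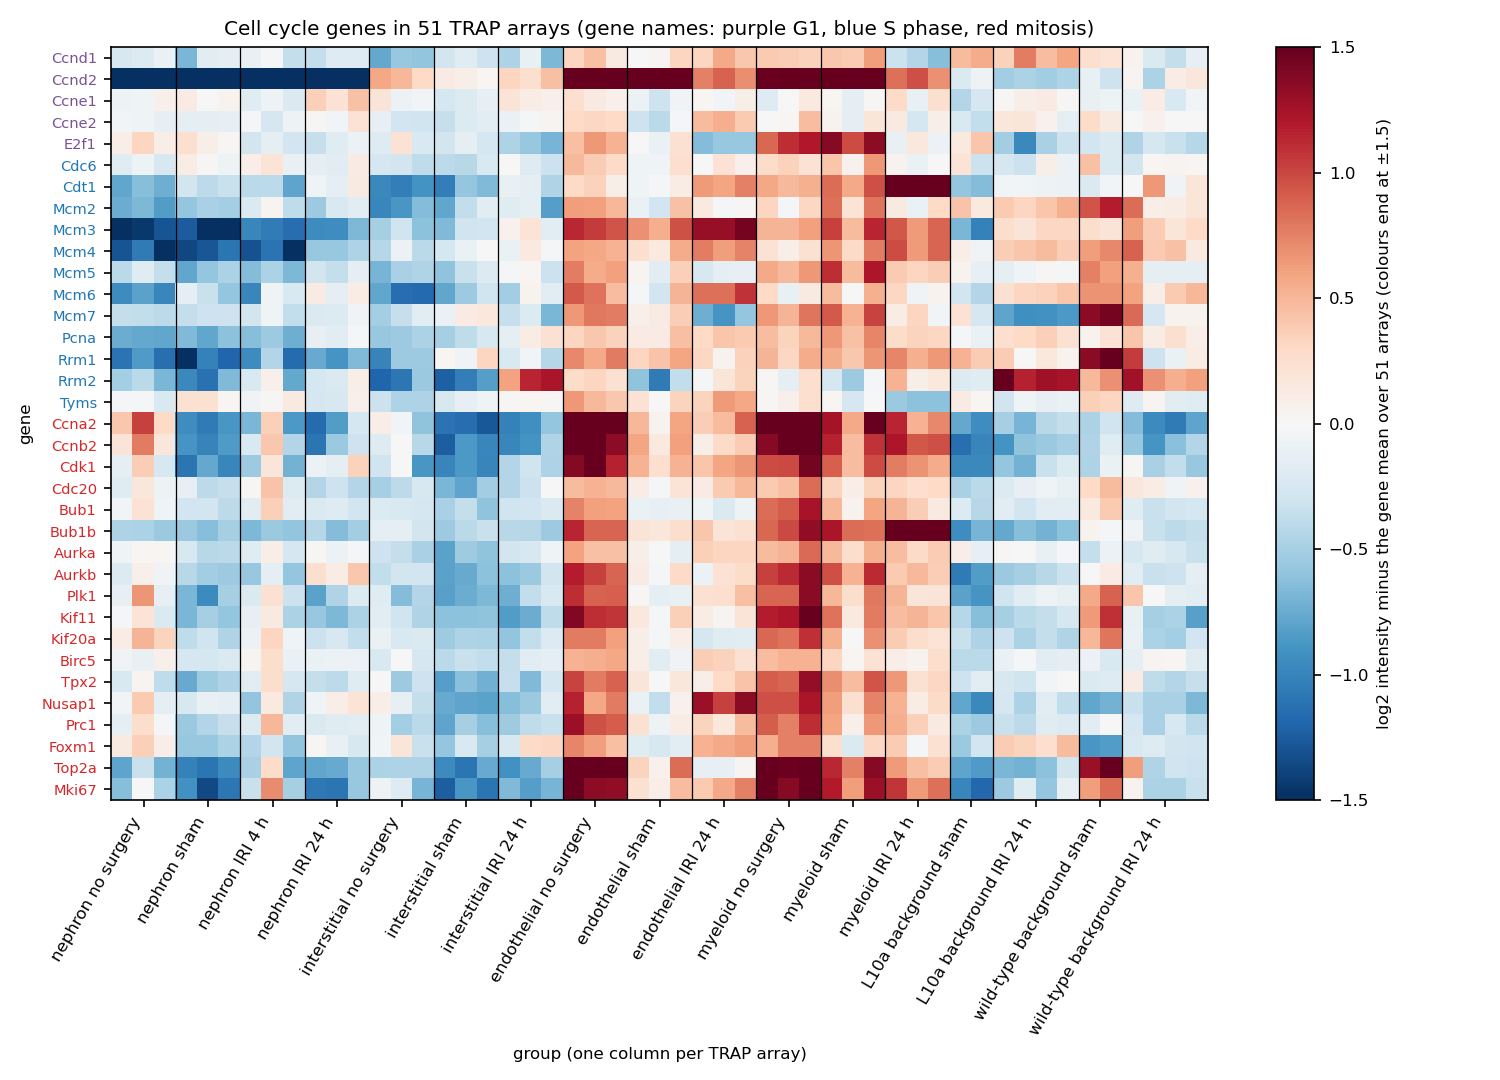
Heat map of the 35 measured members, in rows by role, with one column per TRAP array, ordered by group. Colour gives the log2 intensity of the array relative to the member's mean over the 51 arrays. The endothelial and myeloid groups without surgery are the highest for most mitosis genes, and their sham columns are paler.

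Sham surgery went with lower mitosis messages in all 4 lines. The sham mice had the same operation without clamping, so sham against no surgery asks what the operation goes with. In the nephron line these groups also differed in age. All 18 measured mitosis genes were lower after sham in each line, by a median of -0.46 in the nephron line, -0.34 in the interstitial line, -0.91 in the endothelial line and -0.50 in the myeloid line. The medians of all tested genes were 0.03, -0.04, -0.01 and 0.03. The S phase medians were 0.06, 0.20, -0.34 and 0.21 in the same order, and no S phase gene fell in any line by limma, although 7 of 12 had an unadjusted p under 0.05 in the endothelial line and none in the others.

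In the endothelial line 17 of 18 mitosis genes fell, in a comparison in which 0.483% of all genes fell. Top2a read 9.02, 8.80 and 8.91 without surgery and 7.52, 7.26 and 8.03 after sham, groups that did not overlap, a change of -1.31 ± 0.19 (adjusted p = 9.42e-05). Ccnb2 went from 10.29, 10.05 and 9.71 to 8.96, 8.52 and 8.98, a change of -1.19 ± 0.22 (adjusted p = 0.00213). Kif11, the kinesin that pushes spindle poles apart, went from 8.06, 7.78 and 7.75 to 6.84, 6.65 and 7.03, a change of -1.03 ± 0.15 (adjusted p = 0.000107). In each of these genes every sham array lay below every array without surgery, as it did for all 18 mitosis genes (6.83% of all genes were separated in this direction). Birc5, survivin of the chromosomal passenger complex, had the smallest adjusted p of the list, 7.81e-05, at -0.58 ± 0.08, from 7.35, 7.37 and 7.41 to 6.93, 6.67 and 6.77. The checkpoint kinase gene Bub1b read 8.37, 8.10 and 8.09 and then 7.42, 7.39 and 7.49. Cdc20, the activator of the anaphase-promoting complex, was the gene that missed the threshold, at -0.40 with an adjusted p of 0.361 by limma.

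The endothelial count did not rest on 1 array, since 13 to 16 mitosis genes fell when any array of the pair was left out. With the spread estimated from these 6 arrays alone it was 5. None of the 56 tested markers of kidney and blood cell types changed in this comparison, and 11 had an unadjusted p under 0.05. The mean of the macrophage markers was 11.17 to 11.37 without surgery and 11.45 to 11.67 after sham. The mice of both groups were 6 weeks old.

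In the nephron line 7 of 18 mitosis genes fell, where 0.904% of all genes fell and 1.62% changed in either direction. Ccna2, cyclin A2, which acts in S phase and G2, read 7.96, 8.58 and 7.86 without surgery and 6.62, 6.50 and 6.68 after sham, a change of -1.53 ± 0.27 (adjusted p = 0.00116). Ccnb2 went from 8.56, 9.15 and 8.54 to 7.48, 7.37 and 7.51, a change of -1.29 ± 0.22 (adjusted p = 0.000691). Cdk1 went from 8.51, 9.02 and 8.41 to 7.56, 7.88 and 7.67, a change of -0.94 ± 0.23 (adjusted p = 0.0262). In these 3 genes the groups did not overlap (12.8% of all genes were separated in this direction). In each, replicate 2 was the highest of the arrays without surgery. The others that fell were Plk1 (polo-like kinase), Foxm1 (a transcription factor of the mitosis program), Kif20a (a cytokinesis kinesin) and Kif11, by -0.57 to -0.85. Without that replicate 2, 4 mitosis genes fell, and 4 also fell without sham replicate 1. Sham mice here were aged 8 weeks, against 6 weeks without surgery, and age and surgery cannot be told apart here. None of the 56 markers changed, and 1 had an unadjusted p under 0.05.

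In the interstitial line 5 of 18 mitosis genes fell, where 4.91% of all genes fell. They were Ccna2 at -0.99 ± 0.27, Ccnb2 at -0.82 ± 0.22, Mki67 (the Ki-67 protein that coats mitotic chromosomes) at -0.75 ± 0.23, Nusap1 (a spindle protein) at -0.66 ± 0.18 and Aurkb (the kinase of the passenger complex) at -0.42 ± 0.14. Ccnb2 read 8.18, 8.36 and 7.95 without surgery and 7.13, 7.50 and 7.39 after sham, without overlap (12.4% of all genes were separated lower). Rrm1, the large subunit of ribonucleotide reductase, which makes the building blocks of DNA, rose from 8.54, 9.00 and 9.00 to 9.57, 9.49 and 9.86 (0.79 ± 0.19, adjusted p = 0.00553; 5.4% of all genes rose). Its adjusted p was 0.0645 without the no surgery replicate 1 and 0.0574 without sham replicate 3. The count of 5 was 1 without the no surgery replicate 1 or without sham replicate 3, 2 without the no surgery replicate 2 or sham replicate 1, and 0 with the spread taken from these 6 arrays alone. Of 56 markers 5 rose and 3 fell, among them Lrp2, Cubn and Flt1 higher and Col3a1 lower, and their part was not tested.

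In the myeloid line 5 of 18 mitosis genes fell, where 1.27% of all genes fell. They were Kif11 at -0.72 ± 0.15, Bub1 (the partner checkpoint kinase) at -0.61 ± 0.13, Foxm1 at -0.57 ± 0.14, Kif20a at -0.52 ± 0.12 and Birc5 at -0.31 ± 0.08. Kif11 read 7.85, 7.89 and 8.19 without surgery and 7.49, 6.82 and 7.45 after sham, and replicate 2 was the lowest sham array in this gene and in Bub1, Foxm1, Kif20a and Birc5. The count was 0 without the no surgery replicate 3, 1 without sham replicate 2, 3 without the no surgery replicate 2 or sham replicate 1, and 0 with the spread of these 6 arrays alone. Of 56 markers 3 rose and 5 fell. The neutrophil genes S100a8 and S100a9 were among those that rose and the tubule genes Slc34a1, Lrp2, Cubn and Slc5a2 among those that fell, and their part was not tested.

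The mean of the 4 sham effects gave the steadiest count. It includes the nephron line, whose sham mice were older than its mice without surgery. All 18 mitosis genes fell, where 1.17% of all genes fell, with a median of -0.58 and a range from -1.14 to -0.29, and all 18 still fell when any 1 array was left out. Ccna2 had the largest change, at -1.14 ± 0.14 (adjusted p = 2.48e-06), and Ccnb2 and Kif20a shared the smallest adjusted p, 7.49e-07. The smallest changes were those of Bub1b at -0.29 and Cdc20 at -0.31. No S phase or G1 gene changed in this mean. The lowest S phase value was that of Rrm2, the small subunit of ribonucleotide reductase, at -0.44 ± 0.12 (adjusted p = 0.057), and the S phase median was 0.04.

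**Figure D2:**
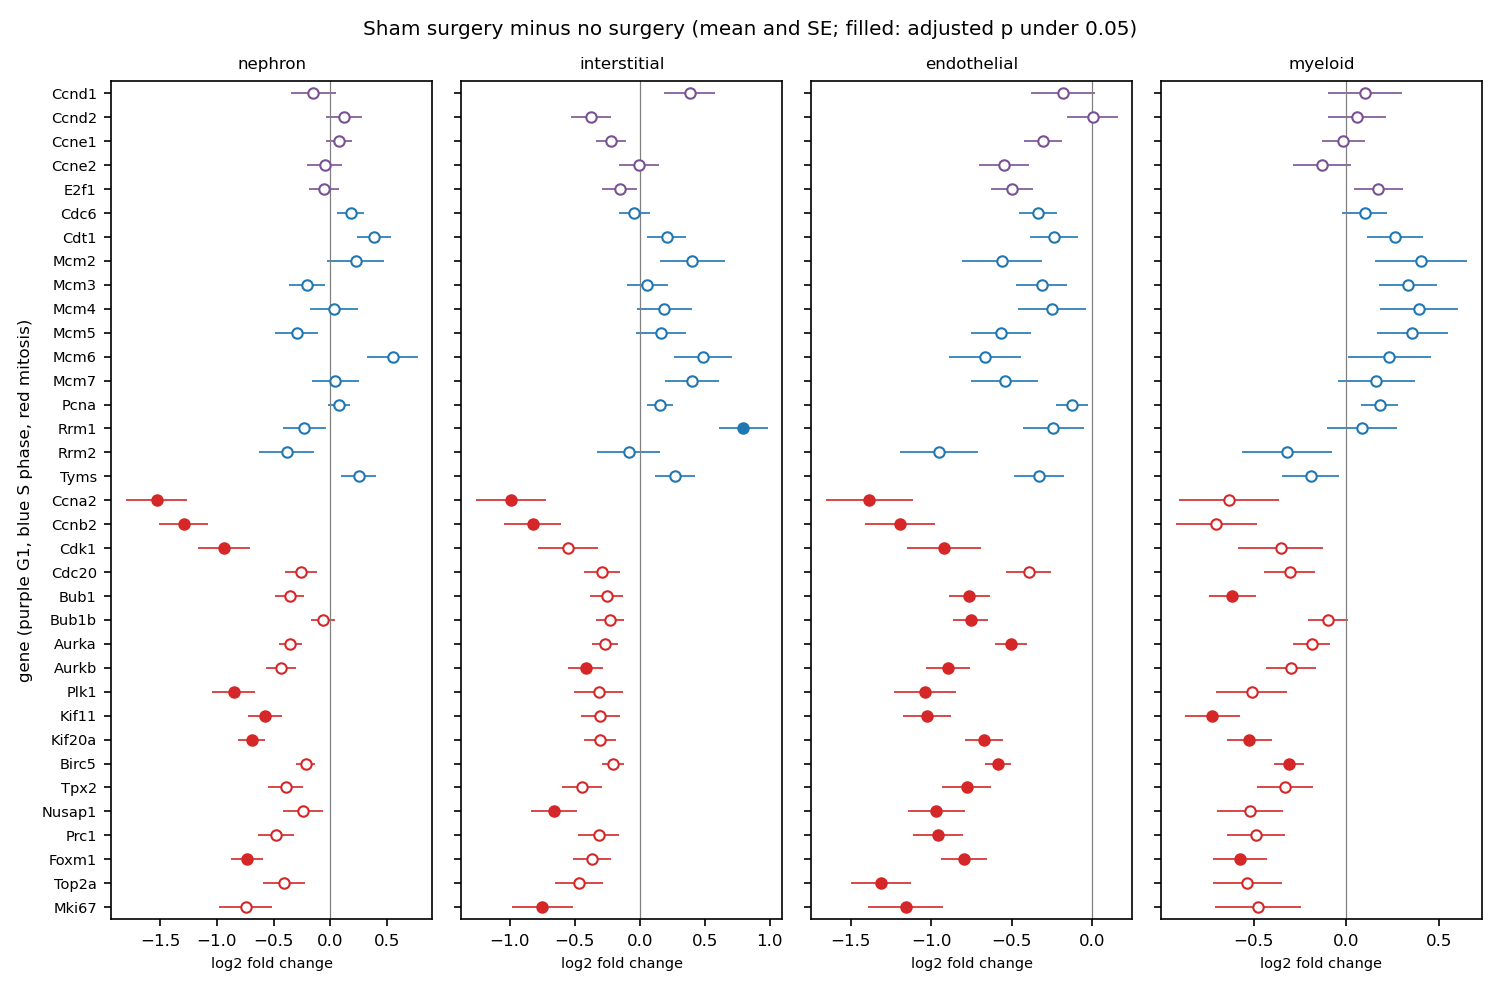
Log2 fold change of each member after sham surgery against no surgery, with its standard error, in each line (panels); filled points passed an adjusted p under 0.05, with purple for G1, blue for S phase and red for mitosis genes. The red points lie to the left of 0 in every panel, while blue points lie on both sides in the nephron, interstitial and myeloid panels.

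Whether the sham effect differed between lines was tested with the effect of each line minus the mean of the other 3. For Bub1b the endothelial fall was larger by -0.62 ± 0.12 (adjusted p = 0.0231; 0.0572% of all genes were lower in this test), the only member there, although 24 members had an unadjusted p under 0.05 in that direction. For Rrm1 the interstitial change was higher by 0.92 ± 0.22 (adjusted p = 0.00475; 5.9% of all genes were higher). In the nephron and myeloid lines limma gave 0 members, with 3 and 4 at an unadjusted p under 0.05. The share of all genes at an unadjusted p under 0.05 was not computed for these tests.

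Genes outside the list were read from a second list of 20 other mitosis genes. In the endothelial line 10 of 20 fell (0.483% of all genes), among them Ckap2l, Kif23, Kif2c and Melk at -0.82, -0.79, -0.60 and -0.57. In the nephron line Ube2c, the ubiquitin-conjugating enzyme of mitotic exit, fell by 0.85 and Hmmr by 0.38, in the interstitial line Ube2c fell by 0.60, and in the myeloid line none fell by limma, with 13 at an unadjusted p under 0.05. In the mean of the 4 lines 15 of 20 fell (1.17% of all genes). The shares of all genes that fell were 0.904%, 4.91% and 1.27% in the nephron, interstitial and myeloid lines. Of 19 other S phase genes, Pole and Cdc45 fell in the endothelial line, at -0.83 and -0.39, Pold1 rose in the interstitial line, at 0.56, and no other changed.

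At 24 h after IRI the S phase genes were the part of the module that rose most often against sham in the nephron line and in total RNA. In the interstitial line 4 of 12 S phase and 3 of 18 mitosis genes rose. The endothelial line had 4 and 4, and the myeloid line 1 and 1. The S phase share was thus also the larger in the interstitial and endothelial lines, and the difference was not tested. Medians over the 12 S phase genes were 0.37 in the nephron, 0.22 in the interstitial, 0.24 in the endothelial and -0.27 in the myeloid line, and 0.59 in total RNA. Medians over the 18 mitosis genes were 0.24, 0.27, 0.18, -0.12 and 0.25, and those of all genes -0.04, 0.05, 0.07, -0.02 and 0.05. Many genes of all kinds changed at this time, so each count below stands beside the share of all genes.

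In the nephron line 9 of 35 members rose and none fell, where 13.9% of all genes rose and 14.7% fell, and 1 member had an unadjusted p under 0.05 for a fall. The 5 S phase genes that rose were Rrm2 at 0.79 ± 0.24, Mcm3 at 0.78 ± 0.16, Mcm4 at 0.71 ± 0.21, Pcna at 0.58 ± 0.10 and Rrm1 at 0.49 ± 0.19. Pcna, the clamp that holds polymerases on DNA, read 10.80, 10.69 and 10.85 after sham and 11.34, 11.29 and 11.45 after IRI, without overlap (adjusted p = 2.06e-05). Over all genes 22.1% were separated in this direction. Mcm3 went from 6.78, 6.11 and 6.32 to 7.09, 7.09 and 7.36 (adjusted p = 0.000208). These S phase changes came with 4 mitosis genes. Cdk1 rose most, from 7.56, 7.88 and 7.67 to 8.55, 8.51 and 8.99 (0.98 ± 0.23, adjusted p = 0.00115), and Aurkb rose from 8.04, 7.94 and 7.92 to 8.70, 8.57 and 8.86 (0.75 ± 0.14, adjusted p = 5.2e-05). Foxm1 and the spindle pole kinase Aurka rose by 0.43 and 0.32. The mitosis count was 2 without sham replicate 2 and the S phase count 3 without IRI replicate 3. The other 14 mitosis genes lay between -0.11 and 0.32. The neutrophil marker list was at a mean of 6.28 to 6.72 after IRI and 6.19 to 6.25 after sham, and 4 endothelial markers rose, whose part was not tested.

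In the interstitial line Rrm2 stood out, from 6.97, 7.16 and 7.37 after sham to 8.80, 9.33 and 9.42 after IRI, a rise of 2.02 ± 0.24 (adjusted p = 3.47e-08). Arrays without surgery read 7.01, 7.11 and 7.63, so both control groups lay far below. In the L10a background, which has no Cre, Rrm2 likewise went from 7.99 and 8.01 to 9.86, 9.35, 9.46 and 9.43, which overlapped the interstitial values. The wild-type background after IRI read 9.45, 8.88, 8.74 and 8.81. Its change from sham was smaller, and the L10a response of Rrm2 exceeded it by 1.34. In all, 8 of 35 members rose and 1 fell, where 19.3% and 20% of all genes did. The others that rose were Foxm1, Cdt1 (which loads the MCM helicase), Aurka, Mcm3, Pcna, Cdc20 and Ccne1 (cyclin E1), by 0.33 to 0.56, and E2f1 fell by 0.35. The 4 S phase genes were 2 without sham replicate 1. Of 56 markers 12 rose and 18 fell, including 6 of 8 neutrophil markers higher and 6 of 8 macrophage markers lower, whose part was not tested.

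In the endothelial line 9 members rose and 4 fell, where 21.5% and 21.7% of all genes did, 43.2% together. Nusap1 rose most, from 7.29, 7.03 and 7.46 after sham to 8.69, 8.42 and 8.74 after IRI (1.36 ± 0.18, adjusted p = 1.26e-07). It had read 8.54, 7.97 and 8.17 without surgery, so its IRI arrays overlapped that range and its sham arrays did not. Foxm1 behaved alike, with 7.95, 7.85 and 7.67 without surgery, 7.04, 6.98 and 7.06 after sham and 7.74, 7.78 and 7.84 after IRI (0.76 ± 0.14, adjusted p = 4.55e-05). Top2a did not. It was lower still after IRI, at 7.06, 7.07 and 7.23, than after sham (-0.48 ± 0.19, adjusted p = 0.0359), and without sham replicate 3 that difference was -0.27 (adjusted p = 0.285).

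The S phase genes of the endothelial line went both ways. Mcm6 rose by 0.85, Rrm2 by 0.84, Cdt1 by 0.66 and Mcm3 by 0.63, while Mcm7 fell from 9.08, 9.12 and 9.37 to 8.27, 8.11 and 8.42 (-0.92 ± 0.21, adjusted p = 0.000483). These include 3 subunits of 1 hexameric helicase. Among the G1 genes Ccne2 (cyclin E2) rose by 0.72, E2f1 fell by 0.64, and Ccnd2 fell from 12.10, 11.94 and 12.23 to 11.07, 11.20 and 11.01 (-0.99 ± 0.16, adjusted p = 2.78e-06). All 8 neutrophil markers rose and 6 of 8 macrophage markers fell in the same arrays. The mean of the neutrophil list went from 7.05 to 7.66 after sham to 9.63 to 9.72 after IRI, and the mean of the macrophage list from 11.45 to 11.67 to 9.82 to 10.60. Their part in these changes was not tested.

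In the myeloid line 2 members rose and 10 fell, where 13.1% and 14.8% of all genes did. E2f1, a factor that starts the S phase program, fell from 9.53, 9.15 and 9.52 to 8.06, 8.32 and 8.09 (-1.24 ± 0.13, adjusted p = 3.88e-09). Ccnd1 fell from 12.20, 12.17 and 12.42 to 11.46, 11.35 and 11.15 (-0.94 ± 0.20, adjusted p = 0.000358), and Ccnd2 from 12.10, 11.94 and 12.10 to 11.15, 11.29 and 11.00 (-0.90 ± 0.16, adjusted p = 2.43e-05). None of these 3 G1 genes overlapped between the groups (over all genes 27.4% were lower and 23.3% higher without overlap). The other members that fell were Mcm7, Top2a, Mcm5, Tyms (thymidylate synthase), Aurkb, Cdc6 (a helicase loader) and Pcna, from -0.69 to -0.30. Cdt1 rose from 9.33, 9.07 and 9.46 to 10.10, 10.17 and 10.15 (0.85 ± 0.15, adjusted p = 3.59e-05) and Bub1b from 8.45, 8.06 and 8.05 to 9.03, 8.82 and 8.75 (0.68 ± 0.11, adjusted p = 6.66e-06). Without sham replicate 3 the count of 12 members was 6 and that of the 5 S phase genes that fell was 1. Without sham replicate 1 or IRI replicate 2 or 3 it was 3 S phase genes. The IRI mice were 9.5 weeks old and the sham mice 7 weeks, 7 of 8 neutrophil markers rose, and the neutrophil list mean went from 7.52 to 7.83 to 9.71 to 10.25, so age and injury cannot be told apart and the part of the neutrophil messages was not tested.

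**Figure D3:**
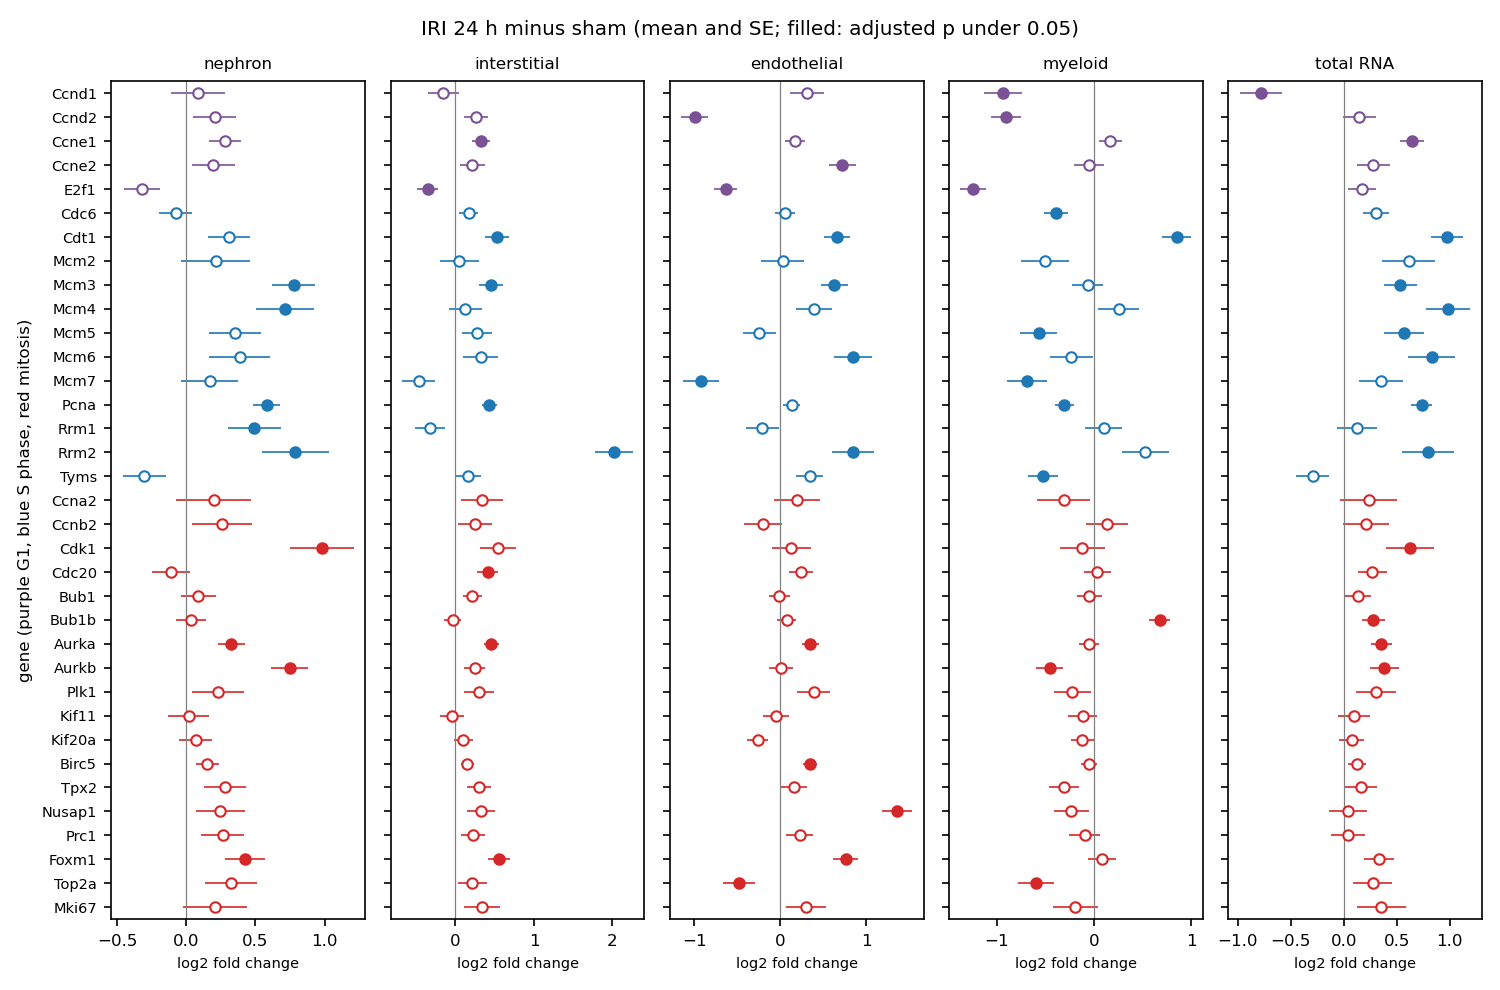
Log2 fold change of each member at 24 h after IRI against sham, with its standard error, in the 4 lines and in total RNA (panels, each with its own x axis); filled points passed an adjusted p under 0.05, with purple for G1, blue for S phase and red for mitosis genes. Rrm2 is the far right point of the interstitial panel at 2.02 and E2f1 the far left point of the myeloid panel at -1.24.

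In total RNA of whole kidneys 12 members rose and 1 fell, where 15.7% and 15.3% of all genes did. Mcm4 rose by 0.99 ± 0.21 (adjusted p = 0.000492), Cdt1 by 0.97 ± 0.15 (adjusted p = 6.69e-06) and Pcna by 0.74 ± 0.10 (adjusted p = 6.36e-07). Mcm4 read 5.81, 5.97 and 6.00 after sham and 7.79, 6.86 and 6.09 after IRI, so its IRI arrays were spread widely, with replicate 1 the highest. Pcna was tighter, with 9.36, 9.24 and 9.33 against 9.83, 10.32 and 9.99. Ccnd1 fell by 0.78, from 10.44, 10.86 and 10.98 to 10.54, 10.22 and 9.18, with overlap. Without IRI replicate 1 the count of 13 was 7, that of the 7 S phase genes was 3 and Rrm2 went from 0.80 to 0.39 (adjusted p = 0.167), and without IRI replicate 3 it was 18 and Ccnd1 was at -0.38 (adjusted p = 0.0696). The 4 mitosis genes that rose were 1 without IRI replicate 1 or sham replicate 2 or 3, and 2 without sham replicate 1. With the spread of these 6 arrays alone no member changed. Of 56 markers 12 rose and 11 fell, and the mean of the nephron epithelium list was 11.80 to 11.87 after sham and 10.72 to 11.00 after IRI, whose part was not tested.

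At 4 h after IRI the nephron line had more mitosis than S phase genes above sham. Against the sham of 24 h, 9 of 18 mitosis genes and 1 of 12 S phase genes rose, where 7.53% of all genes rose, and the medians were 0.43 and 0.04. Mki67 read 7.21, 8.25 and 7.04, against 6.64, 6.18 and 6.46 after sham (1.07 ± 0.23, adjusted p = 0.000856). Ccnb2 read 8.13, 8.77 and 7.93, against 7.48, 7.37 and 7.51 (0.83 ± 0.22, adjusted p = 0.00617). In both genes replicate 2 was the highest and the groups did not overlap (16.8% of all genes were separated in this direction). Top2a, Plk1, Tpx2 (a spindle assembly factor), Prc1 (a midzone bundling protein), Kif11, Kif20a and Birc5 rose by 0.31 to 0.69, and Mcm3 by 0.57. Without the 4 h replicate 2 the count of 10 members was 2 and that of mitosis genes was 1, and Top2a went from 0.69 to 0.38 (adjusted p = 0.154). Without sham replicate 2 the count was 6. Of 56 markers 4 rose and 1 fell, with 10 at an unadjusted p under 0.05, and the mean of the endothelial list was 7.53 to 7.58 at 4 h and 7.14 to 7.33 after sham, whose part was not tested.

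The same 4 h arrays did not lie above those without surgery. No mitosis gene was higher than without surgery, where 8.14% of all genes were, and none had an unadjusted p under 0.05 for a rise. Ccna2 at -0.97 and Foxm1 at -0.63 were lower, where 10.3% of all genes were, as was E2f1 at -0.41. Both comparisons share the 4 h arrays. The count of 3 ranged from 1, without the 4 h replicate 3 or the no surgery replicate 2, to 7 without the 4 h replicate 2.

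Between 4 h and 24 h after IRI members of the nephron line changed in both directions. At 24 h Mcm4 was higher by 0.79, Pcna by 0.54, Cdt1 by 0.51 and Ccne1 by 0.50, and Aurkb, alone among the mitosis genes, by 0.68 (14.9% of all genes were higher). Mki67 was lower, at -0.87 ± 0.23 (adjusted p = 0.00396), as were Ccnb2, Cdc20, Kif11 and Kif20a, at -0.57 to -0.37 (12.8% of all genes were lower). The arrays of Ccnb2 and Kif11 overlapped (over all genes 24.9% were higher and 23.3% lower without overlap). The 5 mitosis genes that were lower became 0 without the 4 h replicate 2, where Mki67 was at -0.49 (adjusted p = 0.0988), 2 without the 24 h replicate 1, and 3 without the 24 h replicate 2 or the 4 h replicate 1.

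Set against mice without surgery in place of sham, the medians of the 12 S phase genes were 0.42 in the nephron, 0.46 in the interstitial, -0.05 in the endothelial and -0.05 in the myeloid line, and those of the 18 mitosis genes -0.25, -0.16, -0.75 and -0.64. The difference between the lists was not tested. These comparisons were added after the results against sham were seen, and they share the IRI arrays with them. Nephron arrays had 5 S phase genes higher, where 15.1% of all genes were, and 6 mitosis genes were lower, where 15.3% were. Mcm6, Mcm4, Cdt1, Pcna and Mcm3 were higher by 0.94, 0.75, 0.69, 0.66 and 0.57. In the interstitial line 7 S phase genes were higher (17.3% of all genes), 4 without IRI replicate 2, and 2 mitosis genes were lower (21.4%), 4 without the no surgery replicate 3 and 0 without IRI replicate 1 or 2 or the no surgery replicate 1 or 2. In the endothelial line 14 mitosis genes were lower (21.4% of all genes), with Top2a at -1.79 ± 0.19 (adjusted p = 1.34e-09) and Ccnb2 at -1.39, and 1 S phase gene was higher and 2 lower. In the myeloid line 14 mitosis genes were lower (15.6% of all genes), with Top2a at -1.13, and Bub1b was higher by 0.58, while 2 S phase genes were higher and 1 lower. The ages differ between these groups in the nephron and myeloid lines.

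The array means of the lists, each taken relative to the mean of the line without surgery, are given array by array. The mitosis mean was -0.58, -0.62 and -0.56 in the nephron sham arrays, -0.31, 0.21 and -0.42 at 4 h and -0.41, -0.36 and -0.20 at 24 h after IRI. In the endothelial line it was -0.85, -1.04 and -0.80 after sham and -0.77, -0.73 and -0.60 after IRI. Arrays without surgery ranged from -0.13 to 0.24 in the 4 lines, so all sham arrays lay below them. The S phase mean of the nephron line was 0.06, 0.03 and 0.07 after sham and 0.36, 0.34 and 0.56 at 24 h after IRI. In the interstitial line it was 0.07, 0.27 and 0.41 after sham and 0.53, 0.70 and 0.45 after IRI. In the endothelial line it was -0.49, -0.61 and -0.18 after sham and -0.26, -0.24 and -0.14 after IRI, all below the arrays without surgery, which ranged from -0.07 to 0.06. The myeloid sham arrays read 0.26, -0.12 and 0.36 and the IRI arrays 0.11, -0.04 and 0.04.

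**Figure D4:**
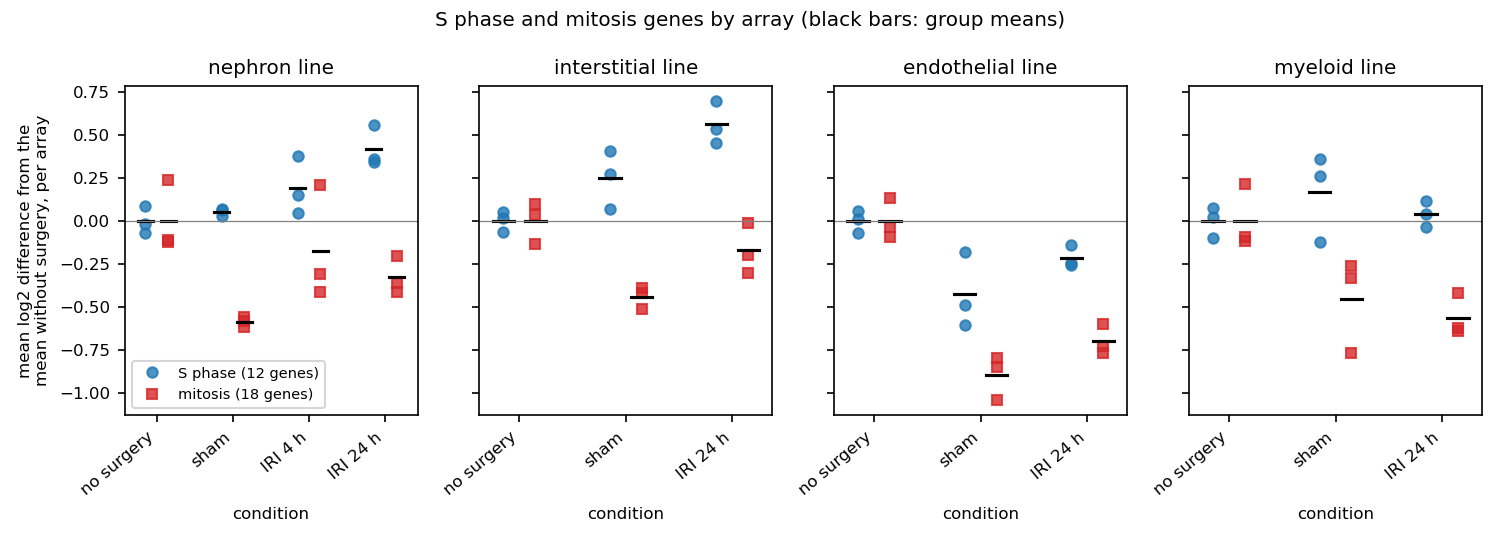
Mean log2 intensity of the S phase and mitosis genes in each TRAP array of the 4 lines, less the mean of the line's arrays without surgery; points are arrays. Mitosis means of the sham arrays lie below 0 in every line, the lowest at -1.04 in the endothelial line, while S phase means after IRI lie above 0 in the nephron and interstitial lines.

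Whether the IRI response differed between lines was tested by setting each line's change against the average change in the other lines. The 4 contrasts depend on each other, since each line also enters the averages for the others. Ccnd2 differed in all of them, by 0.75 in the nephron line, 0.83 in the interstitial line, -0.85 in the endothelial line and -0.73 in the myeloid line. Against sham, Ccnd2 and Mcm7 fell in the endothelial and myeloid lines and neither rose in the nephron or interstitial line. The nephron response was higher for 8 members (11.9% of all genes), among them Mcm7 by 0.86 and Aurkb by 0.81 ± 0.16 (adjusted p = 0.000214). Without nephron IRI replicate 3 it was 4 members, and without sham replicate 3 it was 5. The interstitial response was higher for 2 members (7.78% of all genes), Rrm2 by 1.3 ± 0.28 (adjusted p = 0.00124) and Ccnd2, and 5 without myeloid sham replicate 2. The endothelial response was higher for 6 and lower for 1 (14% and 15% of all genes), with Nusap1 higher by 1.24 ± 0.20 (adjusted p = 2.01e-05) and Mcm6 by 0.69. The 7 were 3 without IRI replicate 2 and 4 without sham replicate 2. The myeloid response was higher for 1 and lower for 16 members (9.34% and 9.14% of all genes). Bub1b was higher by 0.66, while Ccnd1 was lower at -1.01, Nusap1 at -0.88, E2f1 at -0.80 and Mcm6 at -0.75. The 17 were 8 without myeloid sham replicate 3, 9 without sham replicate 1 and 10 without IRI replicate 2.

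Purification without a Cre line shows which messages come through in the absence of Cre. All TRAP arrays, these included, had median intensities of 105.8 to 128.4. The values are therefore relative within an array and give no amount of captured RNA. In the wild-type background, Top2a read 8.48 and 8.87 after sham and 7.81, 6.74, 6.89 and 6.87 after IRI (-1.60 ± 0.22, adjusted p = 1.02e-07). Kif11 fell by 1.35, Rrm1 by 1.28, Mcm7 by 1.23 and Mki67 by 1.04. In all, 12 members fell and 1 rose, where 17.7% and 20.2% of all genes did. Of 56 markers 12 rose and 12 fell there. The macrophage gene Adgre1 averaged 8.13 after sham and 6.40 after IRI and the neutrophil list 6.26 and 7.06, and their part was not tested. In the L10a background 12 rose and 2 fell, where 19% and 19.4% of all genes did. Rrm2 rose by 1.53 ± 0.25 and Mcm3 by 1.12, and E2f1 and Mcm7 both fell by 0.85. Without sham replicate 2 the count of 14 was 9. Of 56 markers 7 rose and 11 fell in the L10a background, whose part was not tested. The L10a response exceeded the wild-type response for 13 members and was lower for 1 (7.92% and 13.7% of all genes). Top2a differed by 1.84 ± 0.31 (adjusted p = 1.75e-05), Mki67 by 1.76 and Kif11 by 1.5, and E2f1 by -0.73, and without wild-type sham replicate 2 the 14 were 9.

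With no amount of captured RNA known, relative levels of the lines were set against the wild-type background of the same treatment. After IRI 16 of 18 mitosis genes in the myeloid line (27.8% of all genes) and 13 of 18 in the endothelial line (26.5%) lay above it. Of the nephron line 3 mitosis genes lay above and 5 below (25.3% and 18.7% of all genes), and no S phase gene lay above and 6 below. In the interstitial line 1 mitosis gene lay above and 3 below (17.8% and 16.3%), and no S phase gene above and 4 below. After sham, 22 of 35 members of the nephron line (19.5% of all genes) and 28 of the interstitial line (19.8%) lay below the background, as did 12 in the endothelial line (26.4%) and 4 in the myeloid line (24.8%), while 16 members of the myeloid line lay above (28.3%). In sham arrays 2 members of the nephron line (28.8% of all genes) and 1 of the interstitial line (22.2%) lay above the untagged pull-down. No background without surgery was used here. Wild-type IRI replicate 1 stood apart from the other 3. Without it 1 mitosis gene of the nephron line lay below the background after IRI and none of the interstitial line did. The nephron count of 5 was 3 without nephron IRI replicate 1 or 2. The interstitial count of 9 members was 4 without the wild-type replicate 1 or interstitial IRI replicate 1, and 5 without interstitial IRI replicate 3. Its 3 mitosis genes below were 0 without interstitial IRI replicate 1, and its 4 S phase genes below were 1 without interstitial IRI replicate 3 and 2 without the wild-type replicate 1. After sham, the 29 members of the interstitial line that differed numbered 19 without wild-type sham replicate 2.

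**Figure D5:**
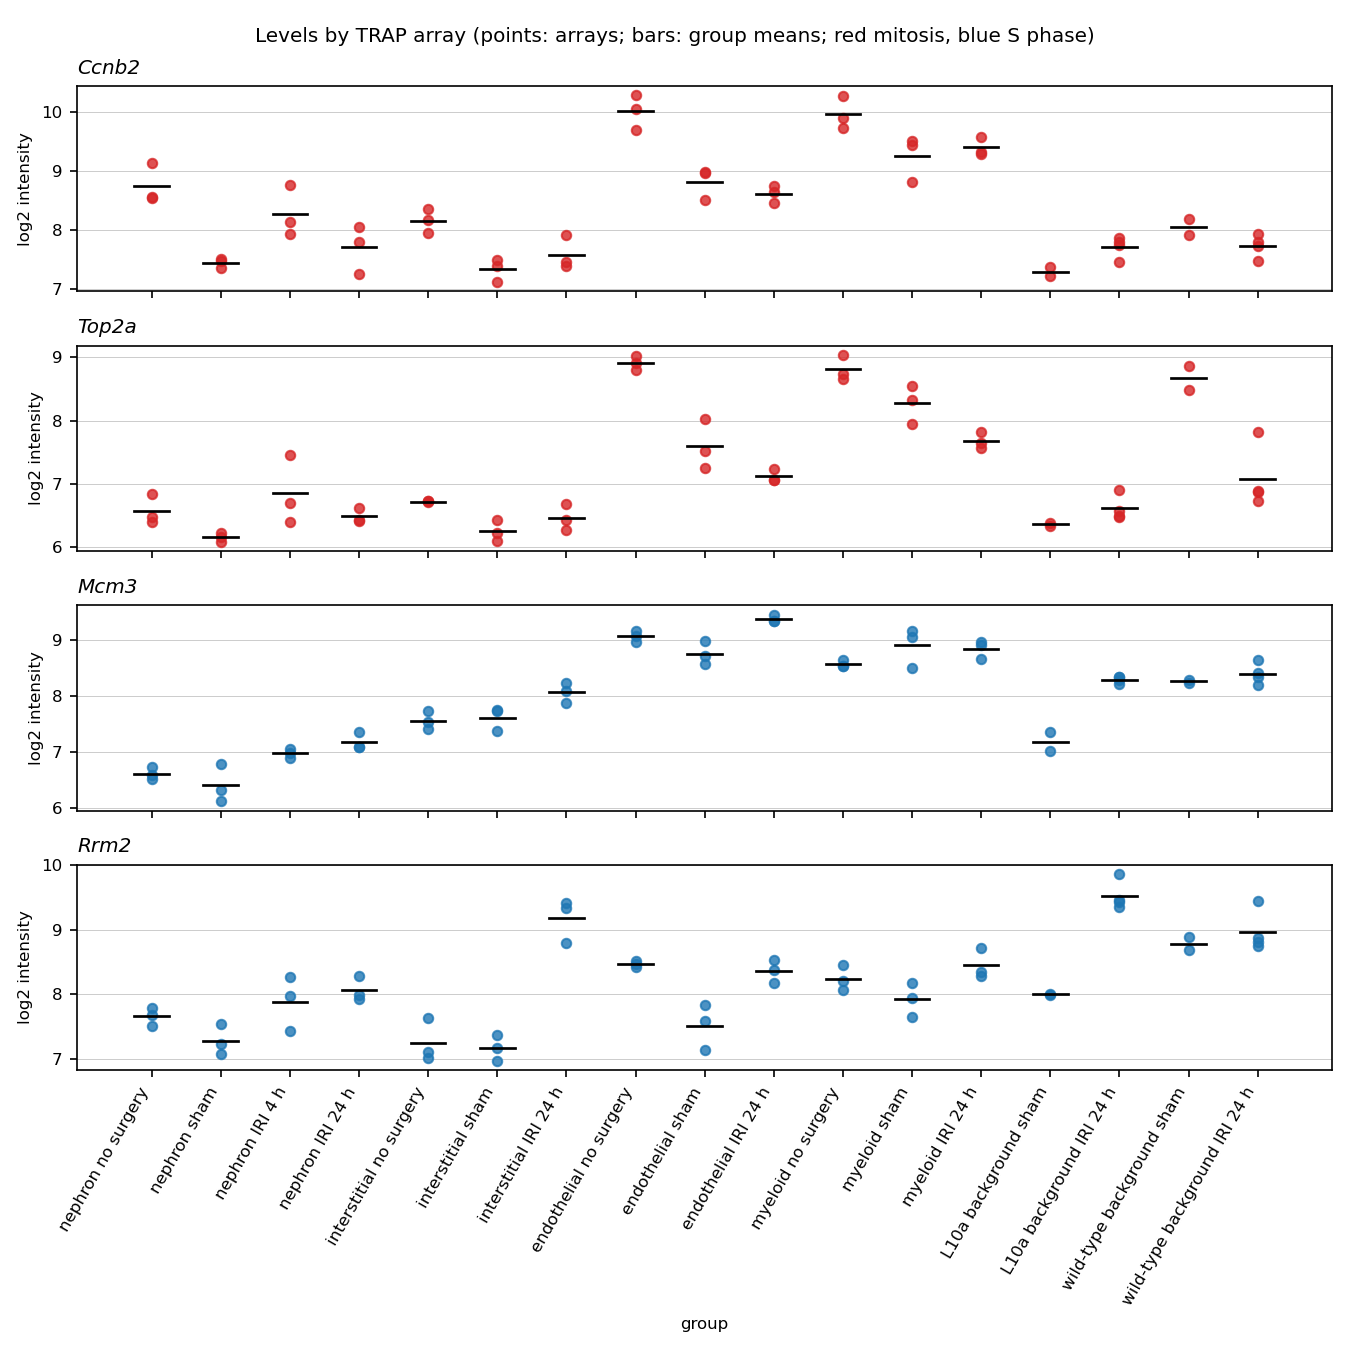
Log2 intensity of Ccnb2, Top2a, Mcm3 and Rrm2 in every TRAP array (points) with group means (bars); red marks mitosis and blue S phase genes. Ccnb2 drops from no surgery to sham in each of the 4 lines, Top2a reads 8.48 and 8.87 in the wild-type sham background, the second within the range of the endothelial line without surgery, and Rrm2 is highest in interstitial and background IRI arrays.

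Over the 51 TRAP arrays the mitosis genes moved together more closely than the S phase genes. The median Pearson correlation was 0.84 over 153 pairs of mitosis genes, 0.56 over 66 pairs of S phase genes and 0.50 over 216 pairs of one kind with the other. Less the mean of each group, the medians were 0.61, 0.46 and 0.38, and over the 17 group means they were 0.85, 0.60 and 0.51. The 10 pairs of G1 genes had a median of 0.25. The arrays share lines, preparation and normalization, so these are descriptions without a test.

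Pcna and Top2a had a second probe set. That of Pcna gave nearly the same differences, 0.59 in the nephron line and -0.31 in the myeloid line after IRI. The second set of Top2a stayed between 4.34 and 4.60 in the means of every TRAP group, below the floor of 5 used to filter low values, so its values are near background. Tested over all probe sets, it went the opposite way to the first set in the myeloid line after IRI, by 0.16 (adjusted p = 0.0151), and rose by 0.18 in the L10a background (adjusted p = 0.0103).

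The wider cell cycle lists at 24 h after IRI were led by few genes. Of 10 other G1 drivers and E2F factors, 5 rose in the nephron and 7 in the interstitial line, and 1 fell in each (over all genes 13.9% and 19.3% rose and 14.7% and 20% fell). Myc, a driver of growth and G1 entry, rose by 2.70, 2.82 and 1.41 in the nephron, interstitial and endothelial lines, and E2f3 by 0.91 and 1.02 in the first 2. Myc also rose in the backgrounds without Cre, by 3.30 in the wild type and 2.15 in L10a, and its part in the lines was not tested. Of 9 pocket proteins and CDK inhibitors, which restrain the G1 to S step, none rose and 2 fell in the nephron line and none rose and 5 fell in the interstitial line. Rbl2, a pocket protein of resting cells, fell by 0.76 and 1.69 in these lines. In the myeloid line the CDK inhibitor gene Cdkn2d rose by 1.57. Of 8 checkpoint genes, Gadd45b, a stress gene, rose in all 4 lines by 0.84 to 1.44, and by 3.37 in the nephron line at 4 h. Of 19 other S phase genes 6 rose and 2 fell in the nephron line, 7 and 0 in the interstitial, 4 and 5 in the endothelial and 2 and 5 in the myeloid line. Prim1 and Lig1 of lagging strand synthesis fell by 1.58 and 1.36 in the endothelial line. Of 20 other mitosis genes 2 rose and 1 fell in the nephron line, 4 and 2 in the interstitial, 4 and 1 in the endothelial and 2 and 2 in the myeloid line. The shares of all genes that rose and fell were 13.9% and 14.7%, 19.3% and 20%, 21.5% and 21.7%, and 13.1% and 14.8% in the same order. Ect2, which starts cytokinesis, fell in all 4 lines, by 0.49 to 1.40, and in the wild-type background by 2.05.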

How the data were processed

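The deposited values are linear probe set intensities, which the authors made by RMA (Affymetrix Expression Console 1.3.1, per the submitters' processing notes). The plan assumed log2 values, so their log2 was taken. Of 35556 probe sets, 21789 carried 1 symbol, 1621 several and 12146 none. Genes above log2 5 in at least 3 arrays were tested, 19244 in a fit of 45 arrays without the background arrays and 19302 in a fit of all 57 arrays (background comparisons). Each was a limma 3.58.1 model in R 4.3.3 with 1 coefficient per group and default eBayes, which pools the spread of all groups, adjusted by Benjamini-Hochberg over all genes and called at 0.05. Residual degrees of freedom were 30 and 38, and the script was tested on simulated data. The number of arrays limits the precision.

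The members and lists were chosen with earlier results of these data known. All members are accounted for. Those with the largest change or clearest pattern in each comparison are given in full, and up to 4 called genes of each further list. Comparisons with no surgery in place of sham, sham levels against background, mean and differing sham effects, the difference of background responses, the motifs and the genes of the levels plot were added after results were seen. Alternatives were quantile normalization, a floor of 6 or none, eBayes with trend and robust settings, the mean of all probe sets, all 57 arrays, only the groups compared, a replicate block and each array left out. Replicate numbers were not treated as pairs in the main model. No probe set gave Ccnb1. Plots were made in matplotlib 3.10.9 under Python 3.11.15.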

Additional observations from a re-analysis of the deposited data

Results flagged for a closer look

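In groups of 4 arrays, 76 sets of values (70 of single members and 6 of list means) were searched for an array far from the others, and 10 sets (13.2%) held one, where chance gives about 1 in 20. Most were the wild-type background IRI replicate 1. It read 10.1 in Mcm2 against 9.36 to 9.45 in the other 3 arrays, 9.51 in Mcm5 against 8.82 to 8.83, 7.81 in Top2a against 6.74 to 6.89 and 7.01 in Tpx2 against 6.46 to 6.55. In Cdc6 it was the lowest, at 6.25 against 6.55 to 6.57. Its list mean relative to sham was -0.05 for S phase genes, against -0.47 to -0.45 in the others, and -0.2 for mitosis genes, against -0.49 to -0.48. Wild-type background IRI replicate 2 stood apart in Ccne2, at 6.54 against 6.48 to 6.49, and in Tyms, at 8.5 against 8.26 to 8.3. L10a background IRI replicate 2 was the lowest in Bub1, at 5.86 against 5.97 to 5.98.

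Differences between lines or backgrounds that passed the test of the difference itself were as follows. The contrasts between lines share arrays and depend on each other. The nephron response to IRI differed from the mean of the other 3 for 8 members, with Mcm7 at 0.86, Aurkb at 0.81 and Ccnd2 at 0.75. The interstitial response differed for 2, Rrm2 at 1.3 and Ccnd2 at 0.83. The endothelial response differed for 7, with Nusap1 at 1.24, Mcm6 at 0.69 and Ccnd2 at -0.85. The myeloid response differed for 17, with Ccnd1 at -1.01, Nusap1 at -0.88 and Mcm6 at -0.75. The sham effect differed for 1 member in the interstitial line, Rrm1 at 0.92, and for 1 in the endothelial line, Bub1b at -0.62. The L10a background response differed from the wild-type one for 14 members, with Top2a at 1.84, Rrm2 at 1.34 and E2f1 at -0.73.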

How the results depend on the processing

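Of 232 counts of members recomputed under other processing, 217 stayed within 1.5 times the reported one, 11 were lower and 4 higher, and of 274 with 1 array left out 237 stayed, 36 were lower and 1 higher. With only the groups compared, members that changed after sham numbered 5 in the endothelial (17 reported), 0 in the interstitial (6), 0 in the myeloid (5) and 12 in the nephron line (7), and mitosis genes that fell numbered 5, 0, 0 and 10. Under the same setting nephron IRI against sham gave 16 (9), the interstitial response 5 (2), interstitial IRI against background 1 (9) and total RNA 0 (13). Quantile normalization gave 14 for interstitial IRI against background and 3 for the myeloid sham effect, all mitosis genes. With the replicate number as a block the wild-type background gave 8 (13), and no such block moved another count by over 1.5 times. No comparison had a correlation above 0.1 in every pair of arrays with the same number. Single pairs reached 0.512 in the endothelial and 0.456 in the interstitial sham effect. With 2 or 3 pairs in each comparison, this cannot decide whether the numbers pair samples. With 1 array left out, members that changed ranged from 13 to 18 in endothelial, 1 to 7 in interstitial, 0 to 4 in myeloid and 4 to 7 in nephron sham effects, and mitosis genes that fell from 13 to 16, 1 to 6, 0 to 4 and 4 to 7. IRI against sham ranged from 6 to 13 in the myeloid line, 6 to 9 in the interstitial line, 6 to 7 in the nephron line and 7 to 18 in total RNA, from 9 to 15 in the L10a and 9 to 14 in the wild-type background, and from 2 to 15 in the nephron line at 4 h. Responses ranged from 3 to 9 in the endothelial, 2 to 5 in the interstitial, 8 to 18 in the myeloid and 4 to 10 in the nephron line, and IRI against background from 4 to 10 in the interstitial and 10 to 16 in the nephron line. The cause was not tested. No single member changed sign where it was called in the reported fit or in the alternative. Sign changes of members called in neither were not counted, and the counts themselves carry no direction. Signals near background limit the lowest members, such as Prc1 and Bub1.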
